A study of Homo sapiens with 6 samples.

Results

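The phospholipases C and D described here are the 10 genes PLCB1, PLCB3, PLCB4, PLCD1, PLCD3, PLCE1, PLCG1, PLCG2, PLD1 and PLD2, taken by gene name from a count table of 58978 genes. All 10 were found once. They were followed in HT29 cells, an established human colorectal adenocarcinoma line, carrying a short hairpin against FITM2 (shFITM2, genotype given as FITM2 knockdown, 3 libraries) or a control hairpin (shCTRL, genotype given as WT, 3 libraries). All cells were grown in McCoy's medium with serum and are labelled untreated, and no label names an agonist of a phospholipase. FITM2 is an endoplasmic reticulum protein needed for lipid droplet budding, and the title of the series names diacylglycerol of the trans-Golgi network. No source used here gives the hairpin sequences, their number, or whether the lines are pools or clones.

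Phospholipases C cut the membrane lipid phosphatidylinositol 4,5-bisphosphate (PIP2) into diacylglycerol, which stays in the membrane, and inositol trisphosphate (IP3), which opens calcium channels of the endoplasmic reticulum. The beta enzymes answer to heterotrimeric G proteins, the gamma enzymes to tyrosine kinases, the epsilon enzyme to RAS family GTPases, and the delta enzymes to calcium. Phospholipases D cut phosphatidylcholine into choline and phosphatidic acid, which lipins and other phosphatidic acid phosphatases turn into diacylglycerol. At the trans-Golgi network diacylglycerol recruits protein kinase D, which acts in the budding of carriers to the cell surface.

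The libraries held between 16964075 and 18855731 counts. FITM2 had 4.83, 5.98 and 4.95 CPM (read counts relative to library size, scaled by TMM) in shFITM2 and 13.2, 10.5 and 10.4 CPM in shCTRL, so the groups did not overlap (log2 fold change −1.12 ± 0.157, SE; adjusted p = 0.000242, edgeR; exact two-sided permutation p = 0.1, the smallest that 3 against 3 libraries allow). The colon epithelial markers were present, from the keratin gene KRT8 at 8384 ± 286 CPM in shFITM2 and 6142 ± 717 CPM in shCTRL, which made up most of their sum, to CDX1 at 0.452 ± 0.244 and 0.841 ± 0.260 CPM (SD, n = 3 each), which is near the detection limit. CDX2 was also low, at 1.72 ± 0.237 CPM in shFITM2 and 0.817 ± 0.258 CPM in shCTRL. The summed level of the colon markers was 14340 to 15140 CPM in shFITM2 and 10440 to 12630 CPM in shCTRL. Of these markers 8 of 11 were called higher and 1 lower, against 4 and 2 under the GC offset described below (median log2 fold changes 0.39 and −0.003). Of the 10 blood cell markers 3 were tested and none called (1 higher under that offset), 2 were at 0 in every library, and their sum of 889.5 to 928.6 CPM in shFITM2 and 777.2 to 903.0 CPM in shCTRL was nearly all LYZ, lysozyme. Of the 9 fibroblast and endothelial markers 2 were tested and none called, and their sum was 2.19 to 2.47 CPM in shFITM2 and 1.85 to 3.64 CPM in shCTRL.

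The fold changes of all genes followed the GC content of their transcripts, and the phospholipase genes range from GC-rich to GC-poor. For each library, a slope on GC was taken of its log2 deviation from the mean of all libraries, so its sign is relative to that mean. Per 10 percentage points of GC it was 0.26, 0.23 and 0.18 in the shFITM2 libraries and −0.27, −0.34 and −0.065 in the shCTRL libraries. Of the controls, shCTRL replicate 3 lay nearest to the shFITM2 libraries. Each member is therefore given from a fit of group alone (the group fit) and from a fit in which the GC trend of each library was removed (the GC offset), so that a real change along GC content is taken out with it. Whether the trend arose in the cells or in the libraries was not tested.

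The difference in base composition can be read in the coding sequence itself. The stretches below are equivalent positions of 3 pairs of members whose read ratio did not overlap between the groups, in lower case with G and C in capitals, from GENCODE 29 transcripts (GRCh38). The pair of PLCB3 and PLCB4, whose read ratio did not overlap either, is not printed. For the phospholipases C it is the conserved part of the catalytic X domain that holds a catalytic histidine, and for the phospholipases D the second of the 2 HKD catalytic motifs, each with 18 flanking bases on either side.
PLD2 (chr17:4819158-4819217, plus strand): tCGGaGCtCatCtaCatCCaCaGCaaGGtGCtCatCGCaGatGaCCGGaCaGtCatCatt
PLD1 (chr3:171620387-171620446, minus strand): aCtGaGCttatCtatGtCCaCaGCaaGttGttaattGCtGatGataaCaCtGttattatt
PLCG1 (chr20:41163802-41163942, plus strand, 2 exons): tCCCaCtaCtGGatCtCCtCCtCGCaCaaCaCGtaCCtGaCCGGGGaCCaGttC
PLCE1 (chr10:94265872-94265925, plus strand): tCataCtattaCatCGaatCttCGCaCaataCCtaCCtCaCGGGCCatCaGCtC
PLCB3 (chr11:64256722-64258483, plus strand, 2 exons): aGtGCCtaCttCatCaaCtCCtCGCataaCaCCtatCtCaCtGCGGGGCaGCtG
PLCB1 (chr20:8685036-8697636, plus strand, 2 exons): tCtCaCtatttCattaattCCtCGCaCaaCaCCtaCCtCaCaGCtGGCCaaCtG
The PLD2 stretch holds 31 G or C in 60 bases and the PLD1 stretch 20. At the first HKD motif, not printed, the contrast was smaller, with 34 in PLD2 and 29 in PLD1. The PLCG1 stretch holds 32 in 54 bases and the PLCE1 stretch 25, and the PLCB3 stretch holds 29 and the PLCB1 stretch 25. Pairs whose read ratio overlapped are not printed. There the PLCG2 stretch holds 26 against the 32 of PLCG1, and the PLCD3 stretch 28 against 30 in PLCD1. The printed pairs were picked by their ratio, so whether a contrast in bases goes with a separated ratio was not tested. At the third codon position over the whole coding sequence, G or C made up 70.7% in PLD2 and 47.2% in PLD1, 74.3% in PLCG1 and 49.8% in PLCE1, and 80.7% in PLCB3 and 46.2% in PLCB1.

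All 10 members passed the filter on low counts. In the group fit 7 of 10 members were called at an adjusted p under 0.05 (48.7% of the 14809 genes tested), 5 higher in shFITM2 (24.2% of genes) and 2 lower (24.5%). With the GC offset 3 were called (29.2% of 14635 genes), 2 higher (11.8%) and 1 lower (17.4%). The median log2 fold change of the members was 0.16 in the group fit, against −0.0002 for all tested genes, and −0.05 under the GC offset, against −0.03 for all. PLD2 and PLCG1 were called higher and PLCE1 lower in both fits. PLCB3, PLCD1, PLCD3 and PLD1 passed in the group fit alone, and PLCB1, PLCB4 and PLCG2 in neither. RNA came from whole cultures, so a change in every cell and a change in a fraction of the cells cannot be told apart.

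**Figure D1:**
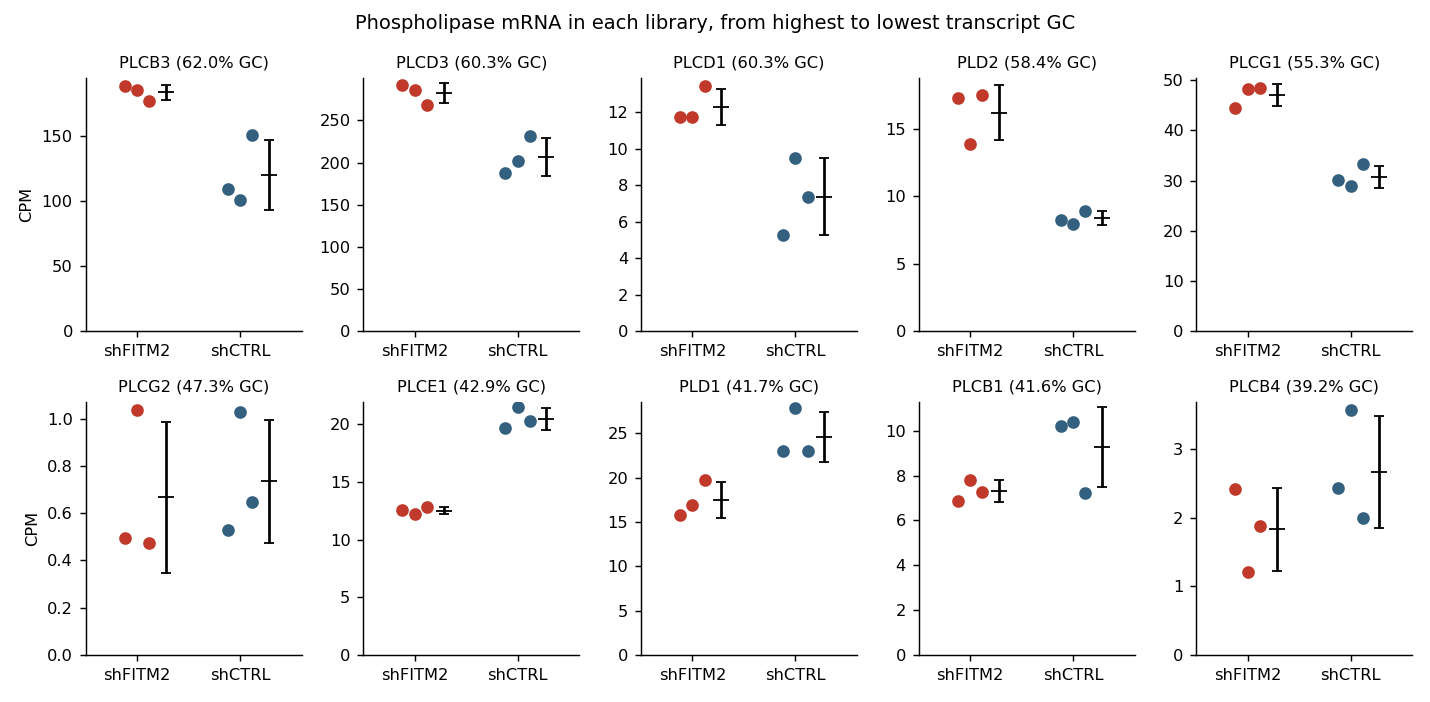
CPM (vertical axis, from 0) of each member in the 3 shFITM2 libraries (red) and the 3 shCTRL libraries (blue), with the mean ± SD in black, ordered from highest to lowest transcript GC. The 5 genes of the upper row lie higher in every shFITM2 library than in any shCTRL library, and of the lower row PLCE1 and PLD1 lie lower in every shFITM2 library.

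Compared per length (RPKM, CPM divided by the length of the gene model in the table), PLCD3 and PLCB3 were the main phospholipase C mRNAs of these cells. The gene model is longer than the longest coding transcript, by unequal factors, so orders, shares and ratios per length depend on the length used. PLCD3 had 41.9 ± 1.79 RPKM in shFITM2 and 30.7 ± 3.32 RPKM in shCTRL, and PLCB3 37.0 ± 1.17 and 24.3 ± 5.41 RPKM (SD, n = 3 each). Next came PLCG1 at 4.88 ± 0.230 RPKM in shFITM2 and 3.19 ± 0.235 RPKM in shCTRL. In shFITM2, PLD2, PLCD1, PLD1, PLCE1, PLCB1, PLCB4 and PLCG2 followed, and each lay above the next beyond the spread of its libraries except PLD2 and PLCD1, whose ranges overlapped. In shCTRL the order was PLD1, PLD2, PLCD1, PLCE1, PLCB1, PLCB4 and PLCG2. There the ranges overlapped between PLCD3 and PLCB3, among neighbours from PLD1 to PLCE1, and between PLCB1 and PLCB4. PLCG2 was lowest in both groups, at 0.0497 ± 0.0238 RPKM in shFITM2 and 0.0547 ± 0.0194 RPKM in shCTRL.

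Together PLCD3 and PLCB3 supplied most of the message of the 8 PLC members. PLCD3 made up 47.4 ± 0.651% of the summed RPKM of the 8 PLC members in shFITM2 and 49.3 ± 1.91% in shCTRL, and PLCB3 41.9 ± 0.104% and 38.6 ± 3.64%. The shares of both overlapped between groups (exact two-sided permutation p = 0.3 and 0.4). The share of PLCE1 was 1.10 ± 0.0537% in shFITM2 and 2.57 ± 0.352% in shCTRL, without overlap (exact permutation p = 0.1, the smallest possible). The shares of PLCB1 (0.476 ± 0.0355% and 0.878 ± 0.263%) and PLCB4 (0.301 ± 0.0968% and 0.637 ± 0.244%) were also lower in shFITM2 without overlap (exact permutation p = 0.1 each). The sum itself was 88.3 ± 2.58 RPKM in shFITM2 and 62.4 ± 8.53 RPKM in shCTRL, also without overlap. That difference was not seen on GC-adjusted levels, an alternative chosen after seeing the data, where the sum was 72.9 ± 0.368 in shFITM2 and 74.8 ± 2.89 in shCTRL and the groups overlapped. The GC-adjusted share of PLCE1 was 1.45 ± 0.0408% in shFITM2 and 1.94 ± 0.0448% in shCTRL, and that of PLCG1 6.005 ± 0.360% and 4.75 ± 0.195%, both without overlap (exact permutation p = 0.1 each). The GC-adjusted shares of PLCB1 and PLCB4 overlapped between the groups. Without the GC adjustment the share of PLCG1 was 5.53 ± 0.392% in shFITM2 and 5.14 ± 0.361% in shCTRL, and the groups overlapped (exact permutation p = 0.3). PLD2 made up 74.2%, 68.2% and 69.98% of the PLD1 and PLD2 sum in the shFITM2 libraries and 48.6%, 42.8% and 50.5% in the shCTRL libraries. On GC-adjusted levels it made up 65.1 ± 2.87% in shFITM2 and 53.9 ± 2.20% in shCTRL, again without overlap.

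**Figure D2:**
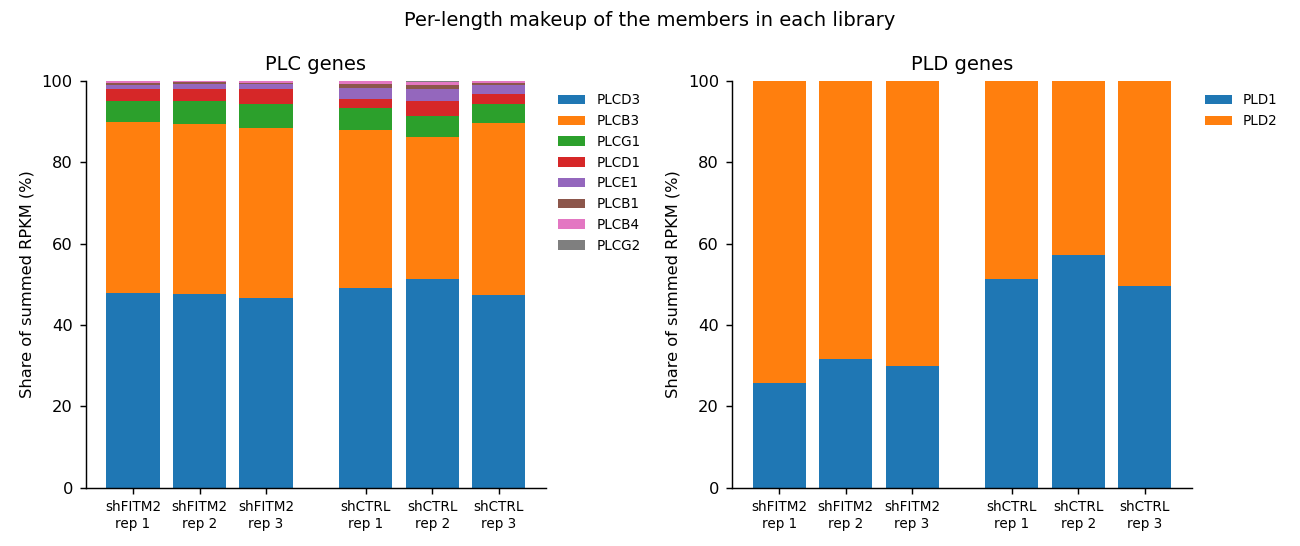
Share of the summed RPKM (vertical axis, percent) held by each of the 8 PLC members (left) and by PLD1 and PLD2 (right) in each library. PLCD3 and PLCB3 fill most of every PLC bar, and PLD2 holds 68.2% to 74.2% of the PLD bars of shFITM2 and 42.8% to 50.5% of those of shCTRL.

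PLD2 (ENSG00000129219, chromosome 17, 4807096 to 4823434, plus strand, GRCh38), a phospholipase D found largely at the plasma membrane, rose the most of the members in both fits. It had 17.2, 13.9 and 17.5 CPM in the shFITM2 libraries and 8.27, 7.95 and 8.92 CPM in the shCTRL libraries, from 147 to 314 reads. Every shFITM2 library lay above every shCTRL library, and replicate 2 was the lowest of shFITM2. The log2 fold change was 0.95 ± 0.130 (SE; adjusted p = 0.00021, edgeR, adjusted over all genes by Benjamini-Hochberg). With the GC trend removed the libraries held 14.3, 11.8 and 15.3 GC-adjusted CPM in shFITM2 and 10.0, 10.0 and 9.45 GC-adjusted CPM in shCTRL, which still did not overlap, and the log2 fold change was 0.49 ± 0.124 (adjusted p = 0.0078, edgeR). Without shFITM2 replicate 3 the GC-adjusted call was lost (log2 fold change 0.40, adjusted p = 0.0555, edgeR).

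PLD1 (ENSG00000075651, chromosome 3, 171600405 to 171810950, minus strand), the paralog found on Golgi, endosomal and lysosomal membranes and activated by small GTPases and protein kinase C, was lower in the group fit. It had 15.8, 16.96 and 19.7 CPM in shFITM2 and 23.0, 27.9 and 23.0 CPM in shCTRL, without overlap. The log2 fold change was −0.50 ± 0.120 (adjusted p = 0.00535, edgeR), and −0.19 ± 0.1001 under the GC offset (adjusted p = 0.166), where the groups overlapped.

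The balance of the PLD genes differed between the groups. PLD2 per PLD1, by gene model length, was 2.88, 2.15 and 2.33 in the shFITM2 libraries and 0.948, 0.751 and 1.02 in the shCTRL libraries. By that measure PLD2 was the more abundant message in every shFITM2 library and the 2 genes were near parity in shCTRL. The parity rests on gene model lengths of 12859 bases for PLD1 and 4888 for PLD2. Their longest coding transcripts hold 5855 and 3503 bases, and by those lengths PLD1 would be the more abundant message in shCTRL. The log2 ratio of their reads differed by 1.44 between shFITM2 and shCTRL, a 2.71-fold change of the ratio that does not depend on library scaling. On GC-adjusted levels it differed by 0.67, or 1.59-fold, again without overlap. The exact two-sided permutation p was 0.1 on both scales, the smallest possible, and 0.15 and 0.3 after Benjamini-Hochberg adjustment over the 6 pairs of members compared. In the reads this separation followed from the CPM of PLD2 and PLD1, which separated in opposite directions.

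**Figure D3:**
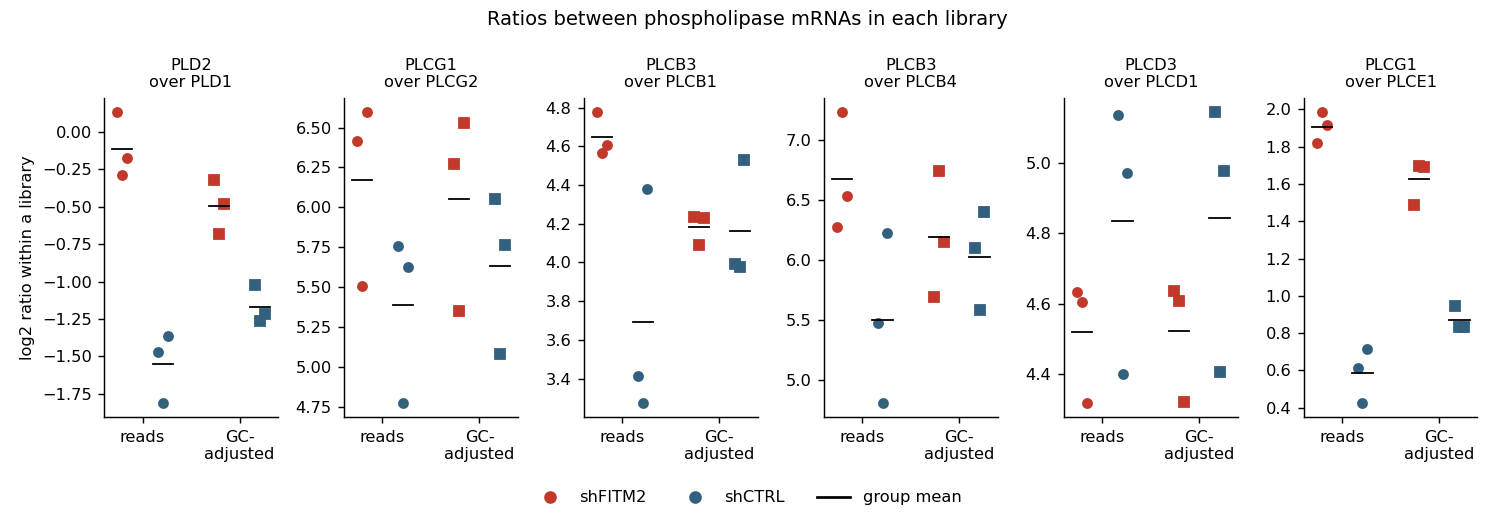
Log2 ratio of 2 members within each library (vertical axis), for 6 pairs, from reads (circles) and from GC-adjusted levels (squares), shFITM2 in red, shCTRL in blue, group means as bars. The ratios of PLD2 over PLD1 and PLCG1 over PLCE1 do not overlap on either scale, and those of PLCB3 over PLCB1 and PLCB3 over PLCB4 come to overlap on GC-adjusted levels.

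PLCG1 (ENSG00000124181, chromosome 20, 41136960 to 41196801, plus strand), the gamma enzyme recruited by receptor tyrosine kinases in most tissues, rose in both fits. It had 44.5, 48.3 and 48.4 CPM in shFITM2 and 30.0, 28.9 and 33.3 CPM in shCTRL. All shFITM2 libraries were above all shCTRL libraries, and this held for the GC-adjusted CPM, at 39.2, 43.3 and 44.3 in shFITM2 and 34.1, 33.8 and 34.8 in shCTRL. Its log2 fold change was 0.62 ± 0.0892 (adjusted p = 0.000287, edgeR), against 0.30 ± 0.0751 under the GC offset (adjusted p = 0.00644). PLCG1 shares 268 exonic bases with ZHX3 on the opposite strand, which had 53.6% as many reads and a log2 fold change of −0.20 (adjusted p = 0.121). The strand setting of the counting was not given in the sources used here, so reads of the shared bases may belong to either gene.

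PLCG2 (ENSG00000197943, chromosome 16, 81739097 to 81962693, plus strand), the gamma enzyme of blood cells, was barely present. Its libraries held 9, 18 and 8 reads in shFITM2 and 10, 19 and 11 in shCTRL, which overlapped fully. The log2 fold change was −0.14 ± 0.469 (adjusted p = 0.825, edgeR), an error that covers a change in either direction at this depth, and its sign turned when shFITM2 replicate 1, shFITM2 replicate 3 or shCTRL replicate 2 was left out (0.04, 0.05 and 0.18). The leukocyte marker PTPRC averaged 0.0549 CPM in shFITM2 and 0.0177 CPM in shCTRL, and the B cell marker MS4A1 was at 0 throughout. Other blood cell markers were higher. CD14 averaged 11.3 CPM in shFITM2 and 10.6 CPM in shCTRL, ITGAM 0.973 and 0.754 CPM, and CD79A 0.555 and 0.198 CPM. LYZ was the highest, as given above.

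PLCE1 (ENSG00000138193, chromosome 10, 94030812 to 94332823, plus strand), which binds RAS and also carries an exchange factor domain for RAP, fell in both fits. It had 12.6, 12.2 and 12.8 CPM in shFITM2 and 19.7, 21.5 and 20.3 CPM in shCTRL. The GC-adjusted CPM were 14.0, 13.4 and 13.7 in shFITM2 and 17.7, 18.96 and 19.6 in shCTRL, and the groups did not overlap on either scale. The log2 fold change was −0.71 ± 0.101 (adjusted p = 0.000263, edgeR), against −0.45 ± 0.0975 under the GC offset (adjusted p = 0.00254). The call was kept in all 10 fits with a GC offset, from −0.58 to −0.42. PLCG1 over PLCE1 was 4.74, 5.30 and 5.06 per length in shFITM2 and 2.05, 1.80 and 2.20 in shCTRL. The log2 ratio differed by 1.32, and by 0.75 on GC-adjusted levels (exact two-sided permutation p = 0.1 for both, adjusted p = 0.15 and 0.3 over the 6 pairs). Since PLCG1 was higher and PLCE1 lower without overlap on both scales, their ratio had to separate, and its test adds nothing to their own values.

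The beta enzymes, which couple to Gq and to G protein beta-gamma subunits, differ in base composition. PLCB3 (ENSG00000149782, chromosome 11, 64251523 to 64269150, plus strand; transcript GC 62.0%) had 189, 186 and 177 CPM in shFITM2 and 109, 101 and 151 CPM in shCTRL. The control libraries were spread more widely than the knockdown libraries. The highest control was shCTRL replicate 3, which lay nearest to the shFITM2 libraries in GC slope. In the group fit the log2 fold change was 0.61 ± 0.138 (adjusted p = 0.00692, edgeR). With the GC trend removed the values were 147, 148 and 148 GC-adjusted CPM in shFITM2 and 144, 140 and 159 GC-adjusted CPM in shCTRL, and the log2 fold change was −0.003 ± 0.053 (adjusted p = 0.976).

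PLCB1 (ENSG00000182621, chromosome 20, 8077251 to 8968360, plus strand; transcript GC 41.6%) had 6.86, 7.82 and 7.25 CPM in shFITM2 and 10.2, 10.4 and 7.22 CPM in shCTRL. Of the shCTRL libraries, replicate 3 fell within the shFITM2 range and the other 2 lay above it. On the log2 scale PLCB1 differed by −0.35 ± 0.164 (adjusted p = 0.0999, edgeR), against −0.03 ± 0.145 under the GC offset (adjusted p = 0.894). PLCB4 (ENSG00000101333, chromosome 20, 9068763 to 9481242, plus strand; transcript GC 39.2%) had 2.42, 1.21 and 1.89 CPM in shFITM2 and 2.44, 3.57 and 1.99 CPM in shCTRL, from 21 to 66 reads. Its groups overlapped, with log2 fold changes of −0.54 ± 0.314 (adjusted p = 0.178), against −0.14 ± 0.296 under the GC offset (adjusted p = 0.776). Without shCTRL replicate 3 both were called lower in the group fit, at −0.50 for PLCB1 and −0.71 for PLCB4 (adjusted p = 0.00434 and 0.0406, edgeR).

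The ratio of PLCB3 to its paralogs was separated between the groups in the reads and overlapped on GC-adjusted levels. The log2 ratio of PLCB3 over PLCB1 was higher in shFITM2 by 0.96 and that of PLCB3 over PLCB4 by 1.18, both without overlap (exact two-sided permutation p = 0.1 each, adjusted p = 0.15). On GC-adjusted levels the differences were 0.02 and 0.17, and the libraries overlapped (exact permutation p = 1.0 and 0.7).

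The delta enzymes, the calcium-activated phospholipases C, were both GC-rich and both called higher in the group fit alone. PLCD3 (ENSG00000161714, chromosome 17, 45108967 to 45133354, minus strand; transcript GC 60.3%) had 292, 286 and 269 CPM in shFITM2 and 187, 201 and 231 CPM in shCTRL, a log2 difference of 0.45 ± 0.0815 (adjusted p = 0.001, edgeR). On GC-adjusted CPM the order of the groups turned round, to 234, 235 and 230 in shFITM2 and 237, 267 and 245 in shCTRL, with a log2 fold change of −0.10 ± 0.0495 (adjusted p = 0.143). The median GC of its coding transcripts was 64.3%, and an offset built on that median called PLCD3 lower (log2 fold change −0.27, adjusted p = 0.00778, edgeR). Without shCTRL replicate 3 the GC-adjusted value was called lower as well (−0.12, adjusted p = 0.0238). PLCD3 shares 50 exonic bases with NMT1 on the opposite strand, which had 63.5% as many reads and a value of 0.22 on the log2 scale (adjusted p = 0.0482, edgeR).

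PLCD1 (ENSG00000187091, chromosome 3, 38007496 to 38029762, minus strand; transcript GC 60.3%) had 11.7, 11.7 and 13.4 CPM in shFITM2 and 5.30, 9.52 and 7.33 CPM in shCTRL. The shCTRL libraries varied by more than the shFITM2 libraries but stayed below them. On the log2 scale PLCD1 differed by 0.74 ± 0.186 (adjusted p = 0.00704, edgeR), against 0.18 ± 0.206 under the GC offset (adjusted p = 0.571), with overlapping groups. Without shCTRL replicate 2 the GC-adjusted value was 0.48 and was called (adjusted p = 0.0263). The log2 ratio of PLCD3 over PLCD1 was lower in shFITM2 by a difference of −0.32 on both scales, with overlap (exact two-sided permutation p = 0.3).

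Across the 10 members the log2 fold change followed transcript GC with a Spearman correlation of 0.72 in the group fit, against 0.74 across all tested genes. With the GC offset it was 0.50 for the 10 members and 0.003 for all tested genes. These are descriptions over genes, which share the same 6 libraries. In the group fit the median of all genes with a GC content from 58.3% to 61.9% was 0.50, and of those from 41.2% to 43.4% it was −0.31. Of the members in the first range, PLD2 (0.95) and PLCD1 (0.74) lay above that median and PLCD3 (0.45) below it. Of those in the second, PLCE1 (−0.71), PLD1 (−0.50) and PLCB1 (−0.35) all lay below. The groups did not overlap in CPM for 7 of 10 members (59.0% of tested genes), 5 above and 2 below (29.1% and 29.9%). In GC-adjusted CPM they did not overlap for 4 (43.3% of genes), with PLD2 and PLCG1 above and PLCE1 and PLCD3 below (18.4% and 24.9% of genes).

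**Figure D4:**
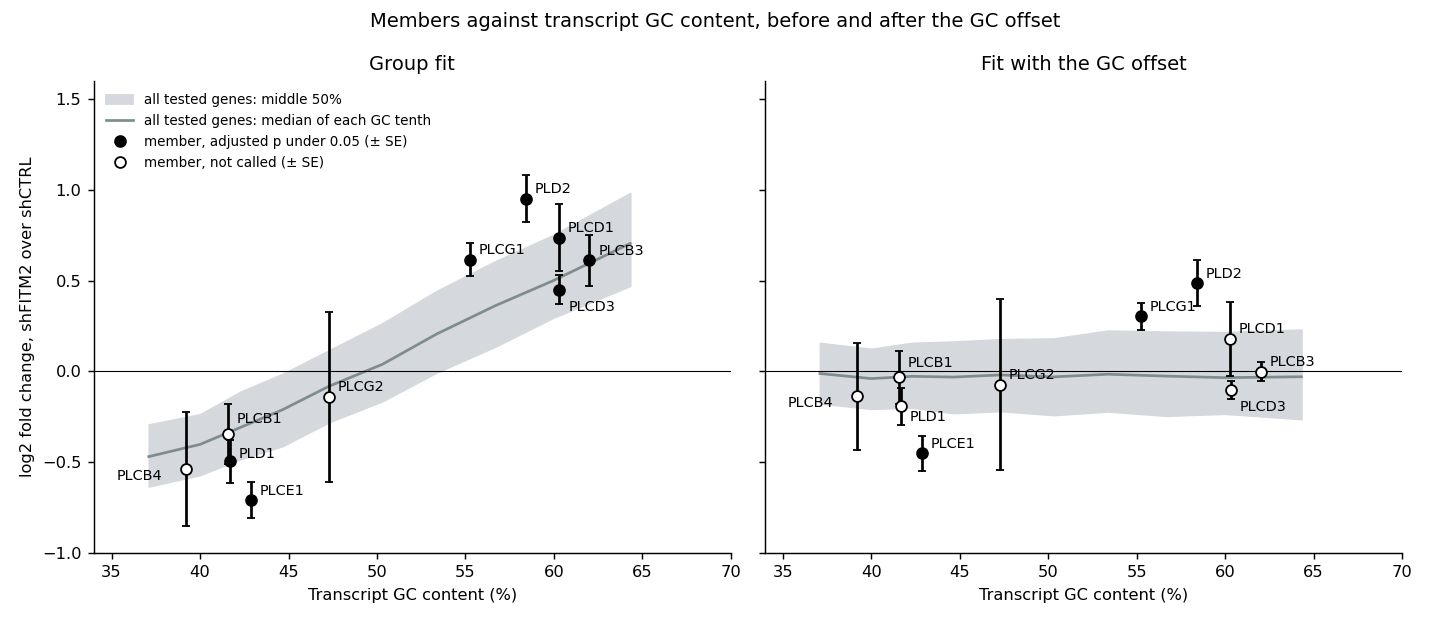
Log2 fold change of shFITM2 over shCTRL (vertical axis) against transcript GC content in percent (horizontal axis), in the group fit (left) and under the GC offset (right). Points are the 10 members ± SE, filled where called at an adjusted p under 0.05. The grey line and band are the median and middle 50% of all tested genes in 10 GC groups. PLD2 and PLCG1 lie above the band and PLCE1 below it in both panels.

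Of the 14 other genes of the PLC and PLD families, 9 were tested. PLD3, a lysosomal exonuclease of the family without established phospholipase activity, had 133 ± 6.995 CPM in shFITM2 and 88.8 ± 17.4 CPM in shCTRL (log2 fold change 0.58, adjusted p = 0.00402, edgeR) and −0.10 under the GC offset (adjusted p = 0.19). PLCH2, of the eta class, had 4.41 ± 0.271 CPM in shFITM2 and 2.34 ± 0.723 CPM in shCTRL (0.92, adjusted p = 0.00813), and 0.17 under the GC offset (adjusted p = 0.601). PLCXD2 was lower in the group fit (−0.49, adjusted p = 0.0042) and PLCXD1 under the GC offset (−0.36, adjusted p = 0.0043), each in that fit alone. PLCH1 (−0.25 and −0.07), PLCD4 (−0.35 and −0.51), the catalytically inactive PLCL1 (−0.17 and 0.26) and PLCL2 (−0.26 and −0.11), and PLD6 (−0.17 and −0.38) were called in neither. PLCZ1, PLCXD3 and PLD5 had no read in any library, and PLCB2, the beta enzyme of blood cells, had 1 to 6 reads. PLD3, PLCXD2 and PLD6 overlap C19orf47, PHLDB2 and MPRIP, whose reads may be included.

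The lists of genes around the phospholipases are set against the share of all tested genes, 24.2% called higher and 24.5% lower in the group fit and 11.8% and 17.4% under the GC offset; with 7 to 15 genes tested in a list, 1 gene more or less moves a share by several points, and no list was tested as a whole. Of the 10 small GTPases listed as activators of PLD, 3 were called higher and 3 lower, and under the GC offset 1 and 3, which are near those shares. Their median log2 fold changes were −0.16 and −0.04. RHOA had 247 ± 3.68 CPM in shFITM2 and 511 ± 27.1 CPM in the shCTRL libraries (SD, n = 3 each), a log2 fold change of −1.05 ± 0.0639 and of −1.003 under the GC offset (adjusted p = 5.23e-06 and 1.46e-09, edgeR). RAC1 had 444 ± 7.55 CPM in shFITM2 and 648 ± 27.5 CPM in shCTRL, at −0.55 and −0.36, and was called in both fits. ARF5 was called in opposite directions, at 0.35 in the group fit and −0.22 under the GC offset (adjusted p = 0.00976 and 0.00277), and RALA (−0.34 and −0.04) in the group fit alone. RHOA and ARF5 overlap TCTA and GCC1 on the opposite strand.

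Among the 15 receptor kinases, other kinases and adaptors listed around PLC-gamma, not all of which recruit it, 11 were tested. Of these 6 were higher and 1 lower, and 3 higher and 2 lower under the GC offset (24.2% and 24.5%, then 11.8% and 17.4%, of all genes). Their medians were 0.43 and 0.07. The neuregulin receptor gene ERBB3 had 313 ± 9.12 CPM in shFITM2 and 196 ± 8.47 CPM in shCTRL, at 0.68 and 0.52 (adjusted p = 4.1e-05 and 2.99e-06, edgeR). ERBB2, its partner, had 337 ± 12.6 CPM in shFITM2 and 180 ± 13.04 CPM in shCTRL, at 0.90 and 0.40, and the fibroblast growth factor receptor gene FGFR2 62.3 ± 0.199 and 35.9 ± 2.15 CPM, at 0.80 and 0.79. MET, the receptor of hepatocyte growth factor, fell, at −0.44 and −0.16. These 4 receptors were called in both fits. ERBB2 overlaps MIEN1 and PGAP3 on the opposite strand.

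Of 12 G protein alpha subunits and regulators around Gq, 11 were tested, 5 were higher and 2 lower, and 2 higher and 3 lower under the GC offset (24.2% and 24.5%, then 11.8% and 17.4%, of all genes), with medians of 0.47 and −0.11. The 2 main Gq alpha subunits had opposite values in the group fit, GNAQ at −0.51 and GNA11 at 0.52 (adjusted p = 0.000505 and 0.000889, edgeR), and neither was called under the GC offset (−0.11 and −0.15, adjusted p = 0.216 and 0.111). GNA15, a further subunit of the Gq class named here after its values were seen, was higher in both fits, with 13.4 ± 1.35 CPM in shFITM2 and 6.63 ± 2.05 CPM in shCTRL (1.02 and 0.40, adjusted p = 0.00134 and 0.0417, edgeR). GNA13, a G protein alpha subunit of the G12 class, fell in both fits, at −0.56 and −0.21. RGS19, a GTPase activator for G alpha subunits, had 0.70 and 0.06 and passed only in the group fit.

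The 15 genes of phosphatidylinositol and PIP2 supply were all tested, with 4 higher and 3 lower, and 1 and 3 under the GC offset (medians −0.02 and −0.002), close to the 24.2% and 24.5% of all genes in the group fit. PITPNB, a phosphatidylinositol transfer protein of the Golgi, fell in both fits, at −0.56 and −0.22 (adjusted p = 0.000337 and 0.00577, edgeR), with 67.0 ± 2.46 CPM in shFITM2 and 98.5 ± 9.04 CPM in shCTRL. The PIP2-making kinase gene PIP5K1C (0.69 and −0.002), PITPNM1 (0.89 and 0.16) and the phosphatidylinositol 4-kinase gene PI4K2A (0.31 and 0.06) passed in the group fit alone. CDIPT, named here after its values were seen, was lower under the GC offset alone (−0.05 and −0.58, adjusted p = 0.642 and 0.00115, edgeR). PITPNB overlaps TTC28-AS1 on the opposite strand.

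Downstream of the phospholipases lie the IP3 branch and the phosphatases that make diacylglycerol from phosphatidic acid. Of 10 IP3 receptors and IP3-metabolising enzymes, 4 were higher and 2 lower, and under the GC offset none higher and 1 lower (medians 0.20 and −0.04; 24.2% and 24.5%, then 11.8% and 17.4%, of all genes). ITPR3, an IP3 receptor, had 0.38 and −0.11, the IP3 kinase genes ITPKC 0.66 and 0.08 and ITPKA 1.35 and 0.50, and the inositol monophosphatase gene IMPA1 −0.61 and −0.15, all called in the group fit alone. Of 9 phosphatidic acid phosphatases 8 were tested, 1 was higher and 1 lower, and under the GC offset none and 1 (medians −0.03 and −0.07), against the same shares of all genes. PLPP2 was called in opposite directions (0.42 and −0.24, adjusted p = 0.000452 and 0.0459, edgeR), PLPP6 was lower in the group fit (−0.29 and −0.24), and LPIN2 (0.09 and 0.08) and LPIN3 (0.42 and −0.05) were called in neither.

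Of 19 genes from families with diacylglycerol targets, not all of which carry a C1 domain, 8 were tested. In each fit 1 was higher and 1 lower (24.2% and 24.5%, then 11.8% and 17.4%, of all genes), with medians of 0.06 and −0.04. The protein kinase D genes PRKD2 (0.56 and −0.06) and PRKD3 (−0.49 and −0.07) passed in the group fit alone, UNC13D (0.16 and −0.52) under the GC offset alone, and PRKCD (0.32 and −0.03) in neither. Of 9 diacylglycerol kinases, which remove diacylglycerol, 7 were tested, with 1 higher and 2 lower, and none and 3 under the GC offset (medians 0.24 and −0.17), against the same shares of all genes. DGKH was lower in both fits (−0.62 and −0.20, adjusted p = 0.000142 and 0.014, edgeR), DGKQ was called higher and then lower (0.54 and −0.28), DGKE (−0.54 and −0.17) was lower in the group fit alone, and DGKA (0.35 and 0.24) was called in neither. ITPR3, ITPKC, PLPP6, PRKD3, DGKQ, DGKE and DGKA overlap other genes with reads of their own.

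**Figure D5:**
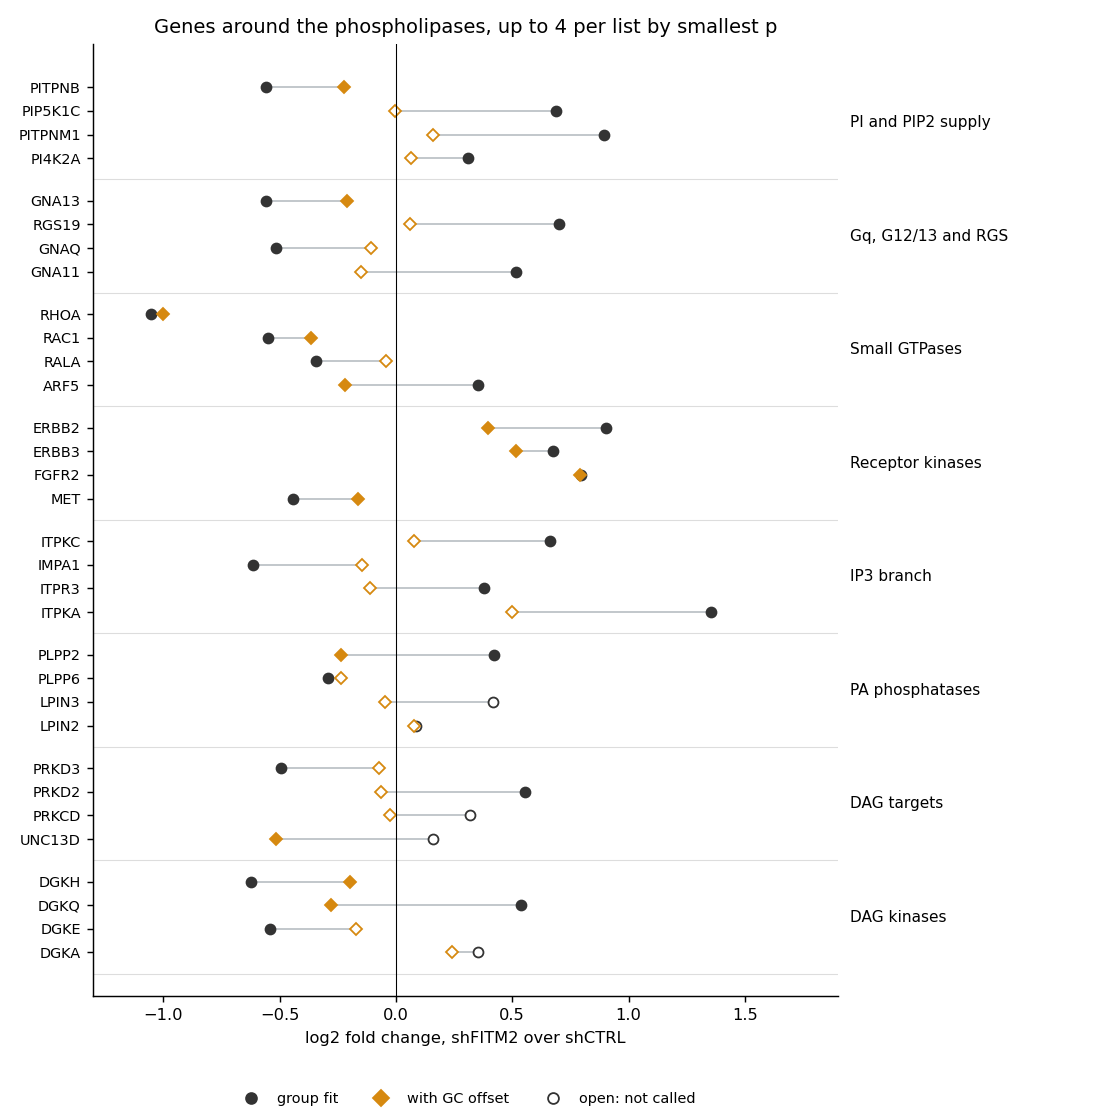
Log2 fold change of shFITM2 over shCTRL (horizontal axis) in the group fit (dark circles) and under the GC offset (orange diamonds), filled where called. Shown are up to 4 genes with the smallest p of the group fit in each of 8 lists of genes around the phospholipases. ERBB2, ERBB3 and FGFR2 lie above 0 and RHOA, RAC1, MET, GNA13, PITPNB and DGKH below 0, and each is called in both fits. ARF5, PLPP2 and DGKQ cross 0 and are called on both sides.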

How the data were processed

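RNA-seq of 6 HT29 libraries was deposited by the authors as raw read counts per gene in 1 table. HISAT2 2.0.5, StringTie 1.3.3b, featureCounts 1.5.0-p3, DESeq2 1.16.1 and hg19 are named, without roles, in the submitters' processing notes. The gene positions in the table are those of GRCh38: all 58735 Ensembl identifiers have their GENCODE 29 position and strand. Gene model lengths are the bases the authors deposited. Libraries came from Trizol RNA with a directional kit, per the labels' protocols; no label says that replicates are separate cultures, so each p-value reflects library-to-library spread, possibly technical only. Replicate pairs differed by a chi-square per gene of 2.35 to 28.6, above sampling noise near 1. The pairs with shCTRL replicate 3 had 20.2 and 28.6, and the other pairs 2.35 to 5.60.

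Counts were tested with edgeR 4.0.16 (quasi-likelihood F-test, robust; limma 3.58.1, R 4.3.3), TMM scaling, a filter at a minimum count of 10 and total of 15, and group as the only term. Genes were called at a Benjamini-Hochberg adjusted p under 0.05. SE is the log2 fold change divided by the square root of F. For the GC offset, the log2 deviations of a library were smoothed (spline, 6 df) over the GC of the longest coding GENCODE transcript, available for 14635 of 14809 tested genes. Ratios used reads plus 0.5, with exact permutation tests (scipy 1.17.1) that cannot go below 0.1. Named genes are the 10 members, FITM2, genes overlapping a member with at least 5% of its reads, all tested genes of both families, and in each list up to 4 genes with the smallest p in the group fit. GNA15 and CDIPT were named after their values were seen. The members and lists were chosen with earlier results of these data known. Alternatives were other scalings, filters, tests (DESeq2 1.42.0, limma-voom), thresholds, a replicate block, left-out libraries and other offsets.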

Additional observations from a re-analysis of the deposited data

How the results depend on the processing

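Outside the GC offsets, the 7 members called in the group fit kept their direction and their call under DESeq2 size factors, library totals, either filter, the DESeq2 Wald test, limma-voom, an adjusted p under 0.01, the replicate block and every left-out library. The GC offset left 4273 genes called, 1732 of them higher, and the GC and length offset 4224, 1773 of them higher; members called fell to 2 higher and 1 lower under both. At 1.5-fold 2986 genes were called (1917 higher, 1069 lower) and 1 member lower; with the GC offset 781 (465 and 316), and 0 members higher and 0 lower. An adjusted p under 0.01 left 2362 higher. The direction turned for PLCB3 (−0.0029) and PLCD3 (−0.10; −0.082 with length). Relative to the GC offset, PLCB3 was 0.019 with length and 0.034 with the GC of the median coding transcript, an offset chosen after seeing the data, where PLCB1 was 0.022 and 2 members were lower; the cause was not tested.

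With single libraries left out, 5338 to 9008 genes were called in the group fit (9008 without shCTRL replicate 3). There 2 to 4 members were lower (4 without shCTRL replicate 3). With the GC offset 2808 to 5617 genes were called (2808 without shFITM2 replicate 1), 1112 to 2331 higher (1112 without shFITM2 replicate 1 and 1130 without shFITM2 replicate 2), 1 to 3 members higher and 1 to 2 lower. PLCG2 ran from −0.60 to 0.18 in the group fit. With the GC offset it ran from −0.53 to 0.24 and was 0.11, 0.12 and 0.24 without shFITM2 replicates 1 and 3 and shCTRL replicate 2. PLCB1 ran from −0.15 (0.031 and 0.020 without shCTRL replicates 1 and 2), PLCB3 from −0.043 (0.00044 without shFITM2 replicate 1, 0.048 without shCTRL replicate 3) and PLCB4 from −0.42 (0.089 without shFITM2 replicate 2, 0.076 without shCTRL replicate 2); none of these was called there.

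With the GC offset, calls higher fell to 0 of the other family genes, 1 of PIP2 supply, 2 around Gq, 1 of the PLD-activating GTPases, 3 of receptor kinases, and 0 each of the IP3 branch, phosphatidic acid phosphatases and diacylglycerol kinases. Calls lower became 2 of receptor kinases and 1 of the IP3 branch.

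Same-numbered libraries did not deviate together (r = −0.0389, −0.00582 and −0.0661), so the numbers were not taken as pairs; with the replicate block 6729 genes were called, and 4181 with the GC offset and the block, and the calls of the members did not change in either. Reads limit PLCG2 (8 to 19) and PLCB4 (21 to 66).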
